A study of Danio rerio with 4 samples.

Results

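The genes described here encode the proteins of the cytosolic ribosome of the zebrafish larva. They were chosen by symbol alone: rps or rpl followed by a digit, or rplp0, rplp1 or rplp2, in any letter case. Of 27758 features in the count matrices, 94 met this rule. Of these, 82 were counted by name as ribosomal proteins themselves, 34 of the small subunit and 48 of the large subunit. Another 11 have rps6k symbols and are called S6 kinases here by symbol alone, and 1, rps19bp1, encodes a binding protein of a ribosomal protein. The kinases and the binding protein were counted apart and stay out of every share given here. Genes such as rpsa, faua, faub and rack1 also encode ribosomal proteins but fall outside the symbol rule, so they form a comparison list.

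Cytosolic ribosomes are built in the nucleolus from ribosomal RNA and one copy each of most ribosomal proteins, and the mature subunits meet on a messenger RNA. The transcripts of these proteins share a pyrimidine-rich start through which growth signals control their translation, and they are among the most abundant messengers of most cells. In blood the ribosome is known for Diamond-Blackfan anaemia, an inherited failure of red cell production caused by loss of a single ribosomal protein gene. Zebrafish carry duplicated copies of several of these genes, and for a few pairs, such as rpl22 and rpl22l1, both copies have been given roles in blood formation.

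Single cells of whole zebrafish larvae were profiled in 4 libraries, 1 for each group. Embryos were held in the vehicle DMSO or in 20 µM SB431542, an inhibitor of the TGF-β type I receptor ALK5 (ALK5i), from 30 to 50 hours post fertilization, with 40 to 50 embryos in a well. At 3 days post fertilization (dpf) GFP-positive cells of a gata2b reporter were sorted from a DMSO and an ALK5i group, and at 6 dpf mCherry-positive cells of an mpeg1.1 reporter were sorted from a DMSO and an ALK5i group. The gata2b gene marks blood stem and progenitor cells, among others, and mpeg1.1 marks macrophages. Stage, reporter and library are therefore the same split, treatment and library cannot be told apart, and no difference in this design has a replicate check. Intervals given here are exact 95% intervals and cover counting error only; no p-value was computed.

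The files held 97212191, 60001771, 20481201 and 12121332 unique molecular identifiers (UMIs, 1 per captured transcript 3′ end) for 3 dpf DMSO, 3 dpf ALK5i, 6 dpf DMSO and 6 dpf ALK5i. After filtering, 31396, 25543, 1980 and 1179 cells remained, with medians of 2316, 1740, 5681 and 6452 UMIs. In the 3 dpf pair 248 cell barcodes were shared, 0.878% of the smaller barcode list. The labels call the cells haematopoietic and immune, yet 11055 of the 3 dpf DMSO cells fell in pigment cell-like clusters, and neuron-, epidermis- and mesenchyme-like clusters were present at both stages. All 12 markers of blood stem and progenitor cells were detected in the class called HSPC-like, with a summed 1671 CPM (counts scaled to a common total of 1000000) in DMSO against 307 CPM in the other cells. In the macrophage-like class 2 of 22 marker features were at 0 in each library. These come from fewer symbols, since features that share a symbol were counted separately. The sum of the 22 was 12900 CPM in 3 dpf DMSO and 16700 CPM in 6 dpf DMSO, against 1194 and 1920 CPM in other cells. Cell class names were rebuilt from these same markers and are not the authors' own. The higher marker sums of a class thus follow from its naming and are no separate support for the name. Detected means only above 0 UMIs in the sum over the class.

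All 82 ribosomal protein genes had UMIs in every library, and 80, 80, 79 and 79 of them reached 50 CPM in 3 dpf DMSO, 3 dpf ALK5i, 6 dpf DMSO and 6 dpf ALK5i. Their median level was 2640, 2617, 4024 and 3792 CPM in the same order. They filled 61, 61, 65 and 66 of the 100 most abundant features. The set was even at its top: the 5 most abundant members held between 11.1 and 11.4% of all ribosomal protein UMIs in each library. CPM values count 3′ ends and are not divided by transcript length.

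The most abundant genes were rpl11 and rplp1. rpl11, whose protein joins rpl5 and 5S ribosomal RNA in a particle that can bind the p53 regulator Mdm2, reached 5022, 4886, 6810 and 7220 CPM. rplp1 reached 4925, 5571, 9171 and 8308 CPM. Its protein is part of the acidic stalk that recruits elongation factors, as are those of rplp0 (4315, 3823, 5226 and 5225 CPM) and rplp2l (3587, 4118, 4880 and 4286 CPM). The remaining genes among the 5 most abundant in DMSO were rpl13 and rps23 at 3 dpf, and rps12, rps23 and rpl23 at 6 dpf.

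A few genes stood far below the rest. rps8b was lowest, at 0.816, 0.512, 0.347 and 0.335 CPM, and the copy of rpl37 with the identifier ENSDARG00000076360 was next, at 9.40, 7.68, 6.95 and 7.62 CPM. rps27l, whose human counterpart is a p53 target, stood at 85.9, 82.5, 477.5 and 611.6 CPM. At 6 dpf a single small unnamed cluster held 69.1% of its UMIs in DMSO and 77.9% in ALK5i. rpl7l1, a relative of rpl7 linked to ribosome assembly, stood at 95.6, 97.0, 160.6 and 155.2 CPM. rpl26, a protein near the exit of the nascent peptide tunnel, stood at 160.9, 268.0, 22.4 and 28.4 CPM: it was higher in 3 dpf ALK5i than in 3 dpf DMSO and lowest in both 6 dpf libraries. The binding protein gene rps19bp1 was flat, at 48.3, 47.8, 46.1 and 49.6 CPM.

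Blood stem and progenitor-like cells carried the largest ribosomal protein share of the named 3 dpf classes, and red blood cell-like cells the smallest. Some unnamed blood clusters, described at the end, stood higher. Ribosomal protein genes supplied 34.6% of all UMIs of HSPC-like cells in DMSO and 35.4% in ALK5i, over 1580 and 1267 cells. Lymphoid-like cells followed at 33.1 and 33.9%, over 1384 and 974 cells. HSPC-like cells thus stood above lymphoid-like cells by less than 2 percentage points in both libraries (log2 ratio of the shares 0.07 in DMSO and 0.07 in ALK5i). Microglia-like cells, a small and shallow class of 143 and 86 cells, were at 31.9 and 32.1%. A larger cluster that shares leading genes with them (apoeb, apoc1 and p2ry12, known from microglia) stayed unnamed, since macrophage markers were the most numerous in it while another class led its top genes. Its 1037 and 1304 cells were at 14.3 and 14.3%, so the place of microglia-like cells in the order rests on the smaller cluster.

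Neutrophil-like cells held an intermediate 26.5 and 26.0%. Several classes outside blood lay close together: liver-like 23.3 and 24.9%, endothelium-like 22.1 and 25.1%, epidermis-like 21.4 and 21.4%, skeletal muscle-like 21.4 and 21.1%, cartilage-like 20.6 and 23.0%, mesenchyme-like 19.7 and 21.5% and neural progenitor or glia-like 19.7 and 20.2%. Several of these neighbours differed by less than the DMSO and ALK5i libraries did within a class, so their order is not fixed by these data. Macrophage-like cells were at 18.0% in DMSO (8886 cells) and 17.9% in ALK5i (8306 cells). Pigment cell-like cells at 15.4 and 16.3% and neuron-like cells at 12.3 and 12.3%, also outside blood, stood lower.

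Erythroid-like cells were lowest, at 8.14 and 9.79%. Transcripts of the listed globin genes, which leave out hbbe3, filled 63.8 and 58.6% of their UMIs. With these and mitochondrial transcripts out of the total the same cells stood at 22.6 and 23.8%. That total still held hbbe3, a leading gene of the larger erythroid-like cluster. The position of red blood cell-like cells at the bottom of the order thus rests on the total that the UMIs are divided by. The HSPC-like share was 1.92 times the macrophage-like share in DMSO and 1.98 times in ALK5i, and it was 4.25 and 3.62 times the erythroid-like share. The level of free RNA in the droplets was not measured here.

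**Figure D1:**
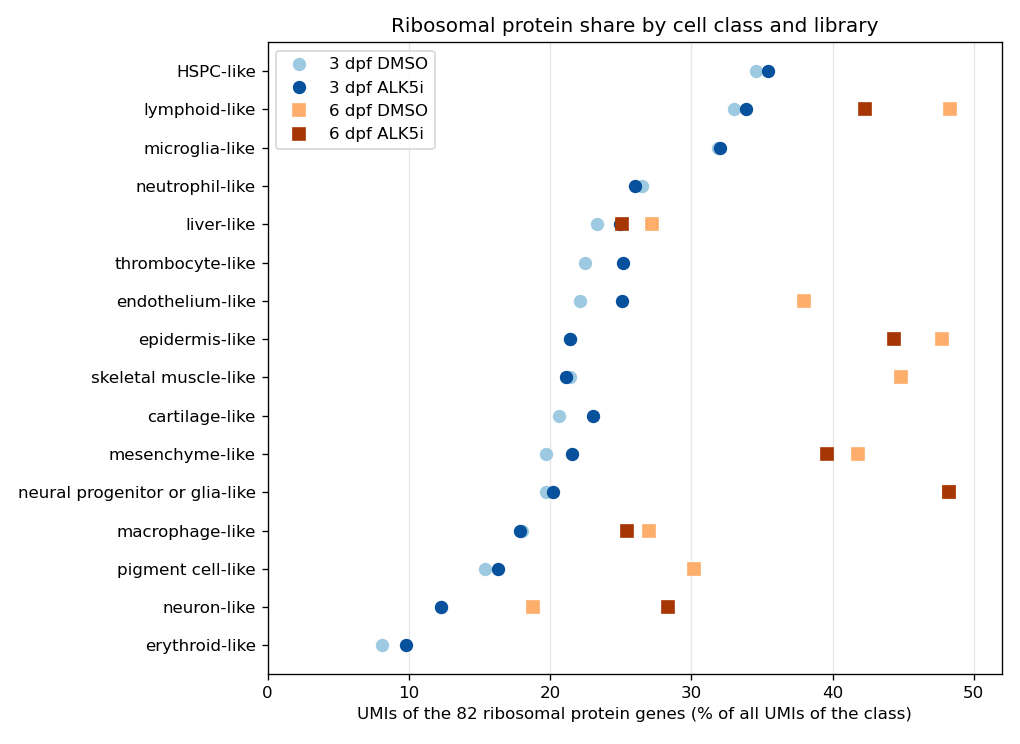
The x axis gives UMIs of the 82 ribosomal protein genes as a percentage of all UMIs of a cell class, with 1 point per library; blue circles are the 3 dpf libraries and orange squares the 6 dpf libraries. At 3 dpf the classes run from 8.14% in erythroid-like to 34.6% in HSPC-like cells of the DMSO library, and the ALK5i points lie beside the DMSO points, while the 6 dpf points lie to the right of the 3 dpf points in every class that has both.

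The classes also differed in how even they were from cell to cell. In 3 dpf DMSO the quartiles over single HSPC-like cells were 31.9, 34.8 and 37.9%, and those over macrophage-like cells 14.1, 17.2 and 20.4%. The ranges between the outer quartiles did not meet. Neutrophil-like cells differed by cluster. The one led by the matrix metalloproteinase genes mmp9 and mmp13a was at 16.4% in DMSO and 15.7% in ALK5i, the one led by the granule genes lyz and npsn at 25.3 and 24.3%, and the one led by tppp, s100z and crhbp at 35.03 and 35.5%. The last held 269 of the 801 neutrophil-like cells of DMSO, was named on 3 markers, none of them among its 10 leading genes, and stood above the share of the class. The share was also split within pigment cell-like cells: a cluster led by gch2 and pts, genes of pteridine pigment synthesis, stood at 25.2 and 27.05%, against 12.4 and 13.3% in one led by pnp4a and mlpha. Clusters were built without the ribosomal protein genes. Sequencing depth moved with the share in part: with cells of 3 dpf DMSO split into 3 equal groups by depth, it went from 36.1% in the shallowest to 33.2% in the deepest HSPC-like cells and from 15.5 to 19.0% in macrophage-like cells.

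The comparison of HSPC-like with macrophage-like cells asks whether the higher share of progenitors is spread over all genes of the set. It was, with 1 exception. A gene was counted as higher or lower where its log2 ratio passed 0.32 in that direction, and it was compared where its mean reached 50 CPM. In DMSO 79 of 80 genes were higher in HSPC-like cells and 0 were lower; among all 2758 features 37% were higher and 48.6% lower by the same rule. The median log2 ratio was 0.92 over the ribosomal protein genes and −0.25 over all features. The log2 ratio of the summed share was 0.94 (0.94 to 0.94). In ALK5i 79 of 80 were again higher, with 37.6% of all features higher and 49.2% lower, and the log2 ratio of the share was 0.99. Every one of the 80 genes gave a log2 class ratio within 0.2 of its value in the other 3 dpf library.

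The exception was rplp2, a stalk protein gene, at 1064 CPM in HSPC-like and 1091 CPM in macrophage-like cells of DMSO and at 1211 and 1220 CPM in ALK5i. Its level was alike in both classes while that of the other stalk genes was not: rplp0 stood at 7916 against 3191 CPM in DMSO (log2 1.31) and at 7322 against 2895 CPM in ALK5i (log2 1.34). Below the median of the set were also rpl6 (1934 against 1262 CPM in DMSO, log2 0.61), rpl22 (2322 against 1483 CPM, 0.65), rps23, a protein of the decoding centre (6499 against 4142 CPM, 0.65), and rps19, the gene most often mutated in human Diamond-Blackfan anaemia (5380 against 3342 CPM, 0.69).

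At the other end stood rpl7l1, at 163 against 47.6 CPM in DMSO (log2 1.68) and 168 against 49.3 CPM in ALK5i (1.67). rpl22l1 stood at 1726 against 575 CPM in DMSO (1.58) and at 1744 against 538 CPM in ALK5i (1.69). In DMSO rplp0 (1.31, given above) and then rps12 (7986 against 3422 CPM, 1.22) followed. Both rpl7l1 and rpl22l1 are the less abundant members of pairs that were grouped by symbol. Against lymphoid-like cells, which had nearly the same share, 1 of 80 genes was higher in HSPC-like cells of DMSO, where 15.3% of all features were. It was rpl7l1, at 163 against 90.5 CPM in DMSO and 168 against 107 CPM in ALK5i.

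**Figure D2:**
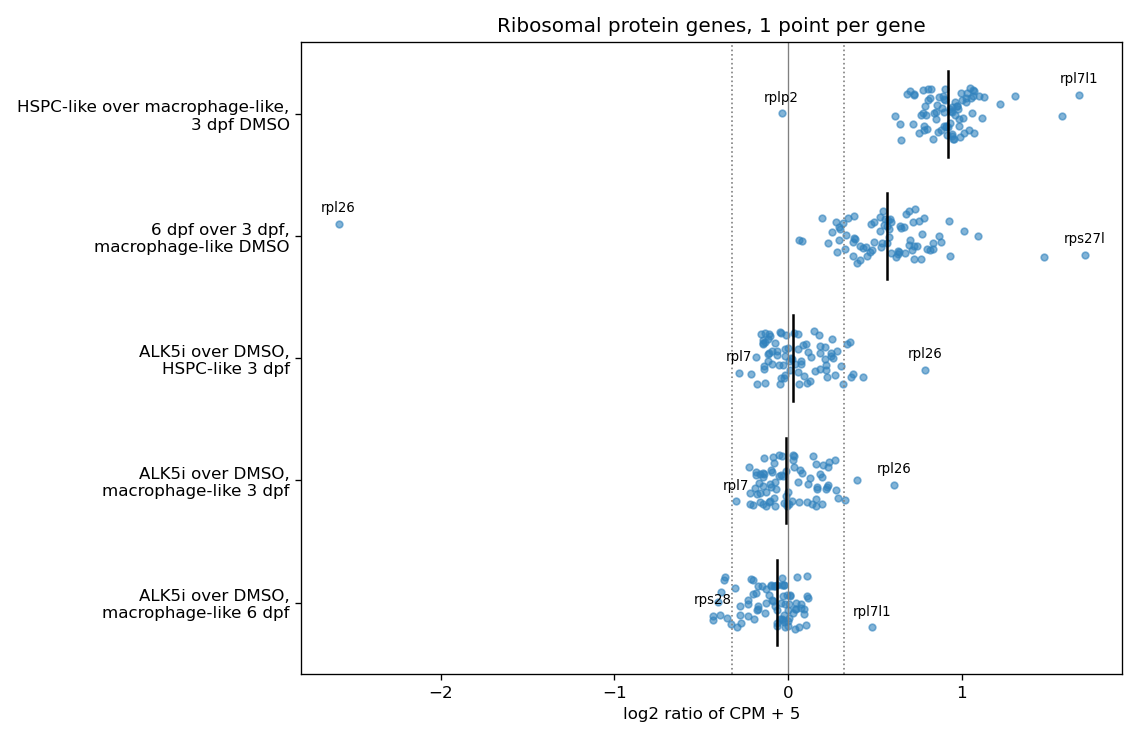
Each point is 1 ribosomal protein gene with a mean of at least 50 CPM, the x axis gives the log2 ratio of CPM + 5, each row is a comparison, black bars are medians and dotted lines mark the log2 ratio of 0.32 in each direction. In the row of HSPC-like over macrophage-like cells all points but rplp2 lie past the right dotted line around a median of 0.92, and in the treatment rows the points lie around 0 with rpl26 apart at 3 dpf.

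Other genes of translation were also higher in HSPC-like than in macrophage-like cells of DMSO. Among all features in this comparison 37% were higher and 48.6% lower. Of the ribosomal protein genes outside the symbol rule 4 of 4 tested were higher, with a median log2 ratio of 0.83. The scaffold protein gene rack1 stood at 2886 against 1651 CPM. Of the elongation and associated factors 11 of 13 were higher and none lower (median 0.77), with the elongation factor gene eef1b2 at 2435 against 1148 CPM. Of the initiation factors 18 of 28 were higher and 5 lower (median 0.66). Ribosome assembly genes stood further apart: 22 of 24 were higher and 1 lower, with a median of 2.17. Among them fbl, the methyltransferase fibrillarin, was at 330 against 50.0 CPM and the nucleolar gene npm1a at 836 against 271 CPM. Of the growth control genes 3 of 5 were higher and none lower, and of the p53 response genes 2 of 6 were higher and 4 lower. Mitochondrial ribosomal protein genes were higher for 17 and lower for 1 of 19 (median 1.40).

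Cell cycle and dissociation stress genes moved with the same comparison. All 12 cycling genes tested were higher in HSPC-like cells, with a summed 3088 against 283 CPM. All 13 stress genes tested, among them the immediate early genes that cell digestion induces, were lower, at 627 against 5556 CPM. Over the 16 classes of 3 dpf DMSO the ribosomal protein share went with the level of the ribosomal protein genes outside the rule (Spearman 0.979, n = 16 classes of 1 library), with elongation factors (0.932) and with cycling genes (0.812), and against stress genes (−0.715). It went less with ribosome assembly genes (0.191) and with the median UMIs of a class (0.309). Over the 7 classes of 6 dpf DMSO and ALK5i assembly genes gave 0.857 and 0.821, cycling genes 0.393 and 0.536 and stress genes −0.464 and 0.143. The 7 classes are another set than the 16, so these values are no comparison of the stages. They include neuron-like cells, whose share in 6 dpf ALK5i was 28.3%, but 10.1% without the 5 deepest cells. All these correlations are descriptions over classes that share a library and a total. The part of the cell cycle and of stress in the share was not tested.

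Within the ribosomal protein UMIs the split between the subunits was steady across classes, while the parts of single genes differed more. The small subunit supplied 43.8% of them in HSPC-like, 44.1% in macrophage-like and 42.7% in erythroid-like cells of 3 dpf DMSO. Over the 16 classes a gene's part of the ribosomal protein UMIs spanned a median log2 range of 0.37 in DMSO and 0.35 in ALK5i. The widest span was that of rpl7l1, from 0.00709% in microglia-like to 0.123% in cartilage-like cells of DMSO. Next came rps27l, from 0.0168% in neuron-like to 0.0783% in pigment cell-like cells. Then came rplp2, rpl22l1 and rplp0. The lowest value of rpl7l1 rests on 4 UMIs.

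For the paralog pairs the part that each copy supplied was compared, which does not depend on the total. The stalk pair rplp2 and rplp2l differed between classes in the same order in DMSO and ALK5i for the classes given here. rplp2 supplied 14.2% of the UMIs of the pair in HSPC-like cells of DMSO (13.9 to 14.5) and 13.9% in ALK5i (13.5 to 14.3). It supplied 14.6 and 14.8% in lymphoid-like, 15.7 and 15.6% in neutrophil-like, but 25.4 and 24.9% in macrophage-like cells, and 29.5 and 29.1% in pigment cell-like cells. The neutrophil-like values include the cluster led by tppp, s100z and crhbp, whose own part is not given here. The order of the 16 classes was nearly the same in both 3 dpf libraries (Spearman 0.977). At 6 dpf rplp2 supplied more in each class compared: 40.6 and 40.6% in macrophage-like cells of DMSO and ALK5i, 38.1 and 41.5% in epidermis-like and 36.7 and 39.3% in mesenchyme-like cells. The 3 and 6 dpf ranges did not overlap in macrophage-like cells.

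In the pair rpl22 and rpl22l1, of which mouse Rpl22 is known to repress its copy, macrophage-like cells had the lowest part of rpl22l1 at 3 dpf, 28.0% in DMSO (27.6 to 28.3) and 24.5% in ALK5i (24.1 to 24.9). HSPC-like cells stood at 42.6 and 39.2%, and neural progenitor or glia-like cells were highest at 52.5 and 49.1%. ALK5i was the lower of the 3 dpf libraries in all 3 of these classes. At 6 dpf the order of the libraries was the other way: macrophage-like cells were at 21.1% in DMSO and 25.6% in ALK5i, and epidermis-like cells at 18.3 and 23.0%.

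For rpl5a and rpl5b, copies of the gene whose protein carries 5S ribosomal RNA, rpl5b supplied 45.0% in HSPC-like cells of DMSO (44.3 to 45.8) and 49.2% in ALK5i (48.3 to 50.2), and 44.0 and 48.6% in macrophage-like cells. Erythroid-like cells had the least, 31.9 and 38.1%, and neuron-like cells the most, 48.7 and 55.5%. The ALK5i library was higher in each of these classes at 3 dpf. At 6 dpf rpl5b supplied 36.0 and 34.4% in macrophage-like cells, below both 3 dpf libraries.

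**Figure D3:**
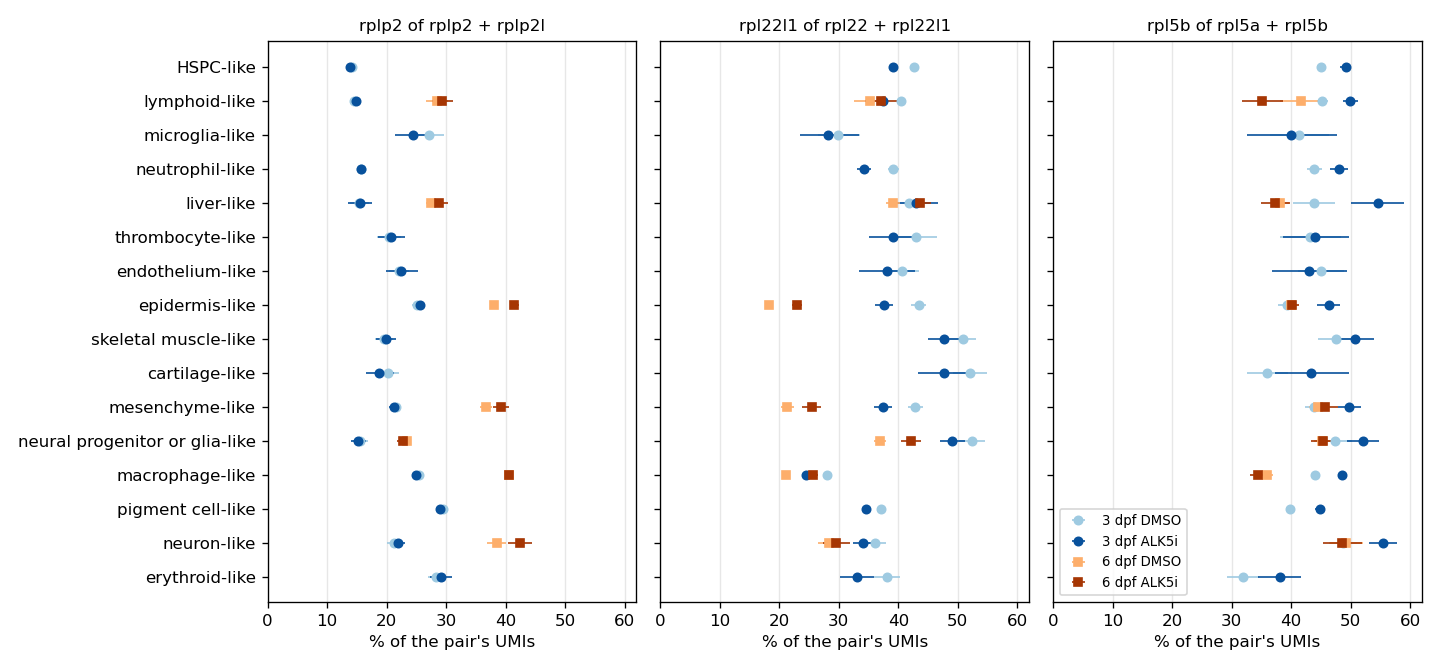
Each panel gives the part of 1 copy in the UMIs of its pair (% on the x axis) by cell class, with 1 point per library and exact 95% intervals for counting error as bars. rplp2 is low in HSPC-, lymphoid- and neutrophil-like cells (13.9 to 15.7%) and higher in macrophage-like cells and at 6 dpf, rpl22l1 is lowest in macrophage-like cells among the 3 dpf circles, and rpl5b is higher in ALK5i than in DMSO at 3 dpf in HSPC- and macrophage-like cells.

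The other groups differ less or are harder to read, since reads of near-identical copies can be divided between them by the counting. rps26 supplied 27.14 and 30.3% of rps26 and rps26l in HSPC-like cells and 28.4 and 32.6% in macrophage-like cells, higher in ALK5i each time. In the rps27 group, rps27.2 supplied 25.7 and 24.96% in HSPC-like and 25.9 and 25.5% in macrophage-like cells, and rps27l 1.49 and 1.59% in HSPC-like cells. rpl7l1 supplied 2.79 and 3.46% of rpl7 and rpl7l1 in HSPC-like and 1.64 and 2.08% in macrophage-like cells. The copies rps8b and rpl37 (ENSDARG00000076360) were almost silent: rps8b never exceeded 0.190% of its pair and this rpl37 copy never exceeded 1.37% in any class compared.

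The genes with rps6k symbols, among them kinases that phosphorylate the ribosomal protein rps6, were rare beside their namesakes. They summed to 286, 273, 104 and 104 CPM in 3 dpf DMSO, 3 dpf ALK5i, 6 dpf DMSO and 6 dpf ALK5i. The copies of rps6kb1, the kinase downstream of mTOR, changed places between HSPC-like and macrophage-like cells. rps6kb1a supplied 23.3% of the pair in HSPC-like cells of DMSO (19.4 to 27.5, over 438 UMIs) and 72.8% in macrophage-like cells (70.6 to 74.96, over 1637 UMIs). In ALK5i it supplied 22.1 and 76.5%. In level, rps6kb1a stood at 15.13 CPM in HSPC-like and 46.8 CPM in macrophage-like cells of DMSO, and rps6kb1b at 49.9 and 17.5 CPM. The pair rps6ka3a and rps6ka3b, kinases of the RSK family, also differed: rps6ka3a supplied 61.6 and 65.9% of the pair in HSPC-like cells (297 and 176 UMIs) and 28.5 and 26.4% in macrophage-like cells. At 6 dpf macrophage-like cells still drew most of the rps6kb1 UMIs from rps6kb1a, 68.0% of 103 and 84.7% of 59 UMIs.

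Macrophage-like cells, the class that the 6 dpf reporter marks, had a higher ribosomal protein share at 6 dpf than at 3 dpf. It was 18.0 and 17.9% at 3 dpf and 27.0 and 25.5% at 6 dpf, in DMSO and ALK5i. The log2 ratio of the shares was 0.58 (0.58 to 0.59) in DMSO and 0.51 (0.50 to 0.51) in ALK5i. In DMSO 68 of 80 genes were higher, where 20.8% of all features were. Together with the 1 gene that was lower, 69 of 80 passed in either direction, where 80% of all features did: 478 were higher and 1356 lower. In ALK5i 63 genes were higher, where 23% of all features were, and 4 lower; 80.8% of all features passed in either direction. The median log2 ratio over all features was −0.64 in DMSO, so most features lay below the ribosomal protein median of 0.57. Stage, reporter and library are 1 split here, and the 6 dpf cells had a median of 10004 UMIs in DMSO against 2661.

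At like depth the difference remained in most bins. Among macrophage-like cells of 4000 to 8000 UMIs the share was 18.9 and 18.0% at 3 dpf and 24.5 and 24.0% at 6 dpf. Among those of 2000 to 4000 UMIs it was 18.3 and 19.0% at 3 dpf, but 18.5% at 6 dpf in DMSO (32 cells) and 23.1% in ALK5i (21 cells). The difference was thus not seen in the few shallow 6 dpf DMSO cells. The epidermis- and mesenchyme-like cells that the 6 dpf sort also held differed more. Epidermis-like cells went from 21.4 and 21.4% at 3 dpf to 47.8 and 44.4% at 6 dpf, and mesenchyme-like cells from 19.7 and 21.5% to 41.8 and 39.6%.

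Neuron-like cells did not follow in the same way. Their summed share was 18.8% in 6 dpf DMSO and 28.3% in 6 dpf ALK5i against 12.3% in both 3 dpf libraries, but 5 cells held 24.95 and 60.8% of their 6 dpf UMIs. Without those cells the share was 13.2 and 10.1%, and at 2000 to 4000 UMIs it was 9.11 and 11.1% at 6 dpf against 12.2 and 13.2% at 3 dpf. The median neuron-like cell stood at 8.46 and 7.80% at 6 dpf against 10.6 and 10.9% at 3 dpf, so the direction in this class turns with how cells are weighted.

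**Figure D4:**
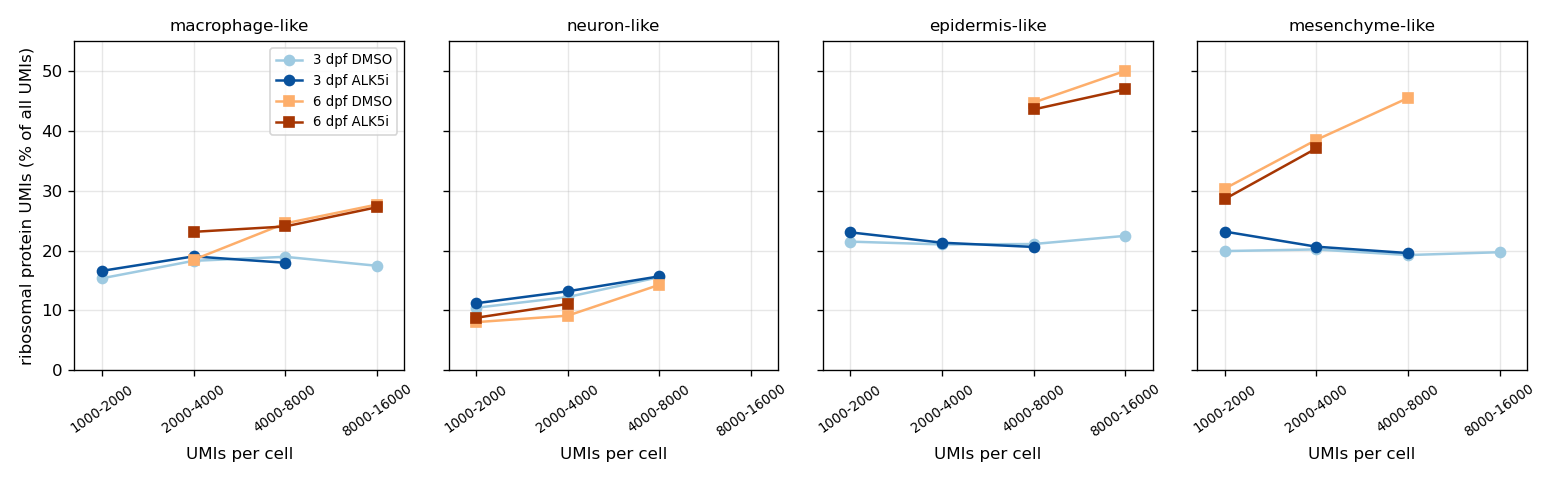
The y axis gives ribosomal protein UMIs as a percentage of all UMIs for cells grouped by their UMIs (x axis), with a panel per class, a line per library and bins of at least 20 cells. Epidermis- and mesenchyme-like cells lie higher at 6 dpf than at 3 dpf at each shared depth, macrophage-like cells do so from 4000 UMIs upward, and neuron-like cells of 6 dpf lie at or below those of 3 dpf.

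The stage difference was not even over the genes. rpl26 went the other way: it stood at 144 and 222 CPM in macrophage-like cells of 3 dpf DMSO and ALK5i and at 19.7 and 22.9 CPM at 6 dpf (log2 −2.59 in DMSO and −3.03 in ALK5i). Its part of the ribosomal protein UMIs was lower at 6 dpf in 8 of 8 comparisons, which are 4 classes in 2 treatments, with a median log2 ratio of −3.53. In 3 dpf ALK5i its part was higher than in 3 dpf DMSO in 16 of 16 classes, with a median of 0.78 and a range from 0.59 to 1.21. These were the medians farthest from 0 among the members tested, for stage and for treatment at 3 dpf alike.

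Among the other genes whose part of the ribosomal protein UMIs was lower at 6 dpf in 8 of 8 comparisons, the medians farthest from 0 were those of rps29 (median log2 −0.82), rpl38 (−0.59), the abundant copy of rpl37 (−0.47), rpl22l1 (−0.40) and rplp2l (−0.39). In mice Rpl38 is known for a role in the translation of Hox transcripts. Among the genes whose part was higher in 8 of 8, they were those of rplp2 (0.71), rps15 (0.35), rps6, the kinase target (0.31), rpl10, a protein needed for subunit joining (0.29), rps16 (0.28) and rps2 (0.27). In macrophage-like cells of DMSO genes with high log2 ratios of level were rps27l (57 to 196 CPM, 1.71), rplp2 (1091 to 3039 CPM, 1.47), rps26 (952 to 2042 CPM, 1.1) and rps25 (2202 to 4215 CPM, 0.94). The lowest after rpl26 were rpl5b (636 to 664 CPM, 0.06), rps29 (2567 to 2716 CPM, 0.08), rpl7l1 (47.6 to 55.1 CPM, 0.19) and rpl15 (2507 to 2945 CPM, 0.23). For rps27l the classes differed in direction. Its part of the ribosomal protein UMIs was higher at 6 dpf in 2 and lower in 4 of 6 comparisons, with a median log2 ratio of −0.73.

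Other genes of translation were mixed in the stage comparison of macrophage-like cells in DMSO, in which 478 of 2293 features were higher and 1356 lower at 6 dpf (median log2 −0.64). The 4 tested ribosomal protein genes outside the symbol rule were all higher at 6 dpf (median log2 0.58). Of the elongation and associated factors 3 of 12 were higher and 5 lower (median −0.07): eef1b2 stood at 1148 and 1758 CPM at 3 and 6 dpf, but eef1a1l1, the main elongation factor 1 alpha, at 3790 and 2226 CPM and eef2b at 1154 and 458 CPM. Of the initiation factors 5 of 25 were higher and 12 lower (median −0.31), and of ribosome assembly genes 0 of 7 were higher and 4 lower (median −0.57). Growth control genes were higher for 0 and lower for 1 of 3, p53 response genes for 3 and 3 of 6, and mitochondrial ribosomal protein genes for 2 and 1 of 5. Stress genes were higher for 2 and lower for 12 of 16, with a sum of 5973 CPM at 6 dpf against 5556 CPM at 3 dpf.

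Summed over the cells of a class, the ribosomal protein share of HSPC-like and macrophage-like cells differed little between ALK5i and DMSO. In HSPC-like cells the share was 34.6% in DMSO and 35.4% in ALK5i (log2 0.04, 0.03 to 0.04). In macrophage-like cells of 3 dpf it was 18.0 and 17.9% (log2 −0.0089, −0.011 to −0.0068). In those of 6 dpf it was 27.0 and 25.5% (log2 −0.083, −0.087 to −0.079). The 3 dpf value was 0.0023, of the other sign, with cells thinned to 1000 UMIs, and the 6 dpf value lay between −0.13 with doublet calls kept and −0.052 with thinning, so no direction is read from the 3 dpf value. At like depth the 3 dpf macrophage-like share was 15.4% in DMSO and 16.6% in ALK5i among cells of 1000 to 2000 UMIs. It was also higher in ALK5i at 2000 to 4000 UMIs (18.3 and 19.0%) but lower at 4000 to 8000 (18.9 and 18.0%). The intervals of the log2 ratios leave out 0, but they cover counting error only. With 1 library a group there is no measure of how much 2 DMSO libraries would differ. Over 16 classes at 3 dpf the ALK5i share was higher beyond its interval in 10, lower in 3 and within it in 3, from −0.02 in neutrophil-like to 0.27 in erythroid-like cells. With the listed globin and mitochondrial transcripts out of the total, erythroid-like cells stood at 22.6% in DMSO and 23.8% in ALK5i, a smaller difference.

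Some single genes had log2 ratios farther from 0 than the summed share did. The set passed the threshold about as often as all features did in HSPC-like cells. There 6 of 80 genes were higher in ALK5i and 0 lower, where 6.47% of all features passed in either direction. They were rpl26 (274 to 478 CPM, log2 0.79), rps26, a Diamond-Blackfan anaemia gene (1769 to 2391 CPM, 0.43), rpl29 (1286 to 1668 CPM, 0.37), rps21 (3742 to 4823 CPM, 0.37), rpl36 (2231 to 2856 CPM, 0.36) and rpl38 (2181 to 2760 CPM, 0.34). The lowest were rpl7 (5686 to 4675 CPM, −0.28), rpl15 (4819 to 4154 CPM, −0.21), rpl12 (4859 to 4273 CPM, −0.19), rps9 (6411 to 5675 CPM, −0.18) and rps4x (4541 to 4073 CPM, −0.16).

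In macrophage-like cells of the same libraries the set passed the threshold less often than all features did, of which 10.6% passed in either direction. Of 79 genes 0 were lower and 3 higher: rpl26 (144 to 222 CPM, log2 0.61), rps26 (952 to 1255 CPM, 0.40) and rpl36 (1298 to 1632 CPM, 0.33). rps21 (1989 to 2433 CPM, 0.29) and rpl29 (739 to 898 CPM, 0.28) came next. The lowest were rpl7 (2859 to 2319 CPM, −0.30), rpl15 (2507 to 2147 CPM, −0.22), rpl12 (2942 to 2530 CPM, −0.22) and rps9 (3134 to 2699 CPM, −0.22).

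At 6 dpf several of these genes lay on the other side. In macrophage-like cells the set passed the threshold less often than all features did, and its lower genes were about as frequent as theirs. Of all 1770 features 20.5% passed in either direction, 181 of them higher and 181 lower. Of 79 ribosomal protein genes 1 was higher in ALK5i and 9 were lower. The lower ones were rps28 (2213 to 1638 CPM, log2 −0.43), rpl29 (961 to 713 CPM, −0.43), rpl39 (3536 to 2669 CPM, −0.41), the abundant copy of rpl37 (−0.39), rps21 (3297 to 2527 CPM, −0.38), rpl38 (1413 to 1094 CPM, −0.37), rps26l (4041 to 3141 CPM, −0.36), rpl36 (2261 to 1769 CPM, −0.35) and rps29 (2716 to 2166 CPM, −0.33). The higher one was rpl7l1, at 55.1 and 79.2 CPM (285 and 239 UMIs), close to the 50 CPM minimum. Over the 4 classes compared at 6 dpf its part of the ribosomal protein UMIs was higher in ALK5i in 1 and lower in 3 (median log2 −0.256). High in the order after rpl7l1 were rpl19, rpl7 and rpl18, with log2 ratios from 0.10 to 0.12. The proteins of rps21, rps28, rpl38 and rpl39 are among the smallest of the ribosome.

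The pattern was shared by the classes of a library pair. Each gene's part of the ribosomal protein UMIs was compared between ALK5i and DMSO in 16 classes at 3 dpf and in 4 classes at 6 dpf. Of the 79 genes tested at both stages, which leave out rpl26, 23 had a higher part in ALK5i in all 16 classes at 3 dpf and 16 a lower part in all 16. At 6 dpf 28 were higher and 24 lower in all 4 classes. Between the stages the sign of the median was opposite for 61 of the 79 genes. There were 18 genes higher in every class at 3 dpf and lower in every class at 6 dpf, 11 with the reverse, 1 (rpl32) higher in both and 0 lower in both. The parts of a class add up to a fixed total, so higher parts of some genes go with lower parts of others. The same counts over all features are not given, so whether the pattern is particular to ribosomal protein genes was not tested.

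The genes that turned from higher to lower were rpl22, rpl29, rpl35, rpl35a, rpl36, rpl36a, rpl37, rpl38, rpl39, rplp1, rplp2l, rps12, rps21, rps24, rps25, rps26, rps26l and rps28. The 3 and 6 dpf medians were 0.34 and −0.39 for rpl29, 0.33 and −0.29 for rps21, 0.29 and −0.36 for rpl38 and 0.24 and −0.35 for rps28 on the log2 scale. The genes that turned from lower to higher included rpl7, rpl8, rpl10, rpl12, rpl15, rpl18, rpl19, rps3a, rps10 and rps13, with −0.32 and 0.17 for rpl7 and −0.22 and 0.18 for rpl12. Across the 79 genes the medians of the stages had a Spearman correlation of −0.751 (Pearson −0.749). This is a description across genes, which are not replicates, and the classes of a stage share 1 pair of libraries. The 2 stages share no library.

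**Figure D5:**
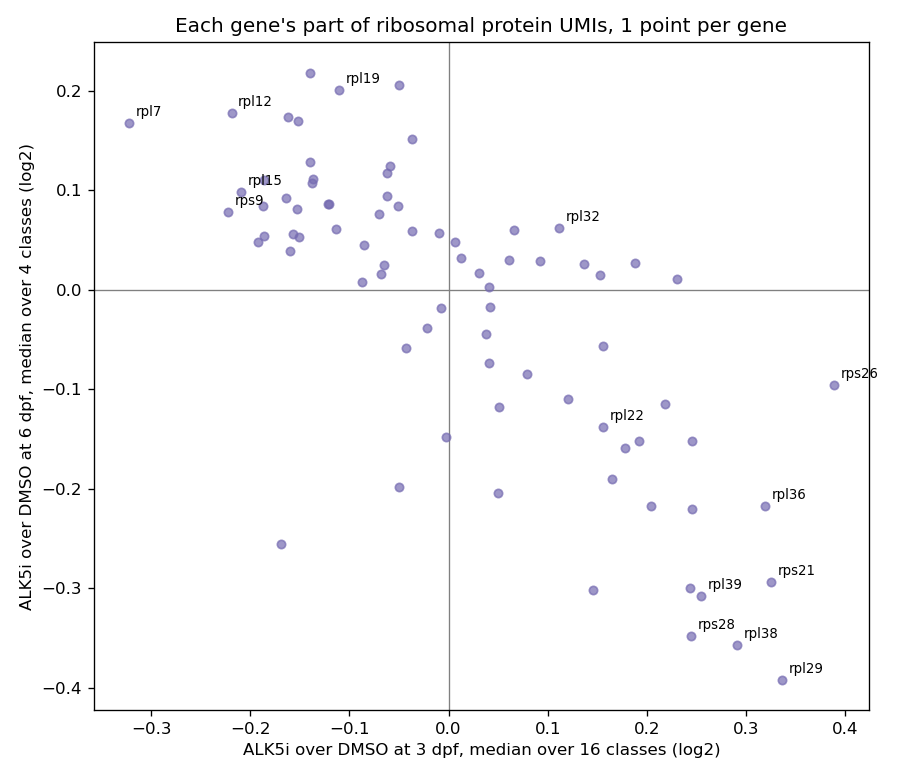
Each point is 1 of the 79 ribosomal protein genes tested at both stages, rpl26 not among them; the x axis gives the median over 16 classes at 3 dpf and the y axis the median over 4 classes at 6 dpf of the log2 ratio, ALK5i over DMSO, of its part of ribosomal protein UMIs. The points run from upper left (rpl7, −0.32 and 0.17) to lower right (rpl29, 0.34 and −0.39).

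In HSPC-like cells most genes of the other lists did not pass the threshold in the treatment comparison. Among all features 6.47% passed in either direction, so few or no passing genes in a short list sets it little apart. Of the ribosome assembly genes 6 of 47 tested in HSPC-like cells were higher in ALK5i and none lower, with a median of 0.17. None of the elongation (13 tested), initiation (28), mitochondrial ribosomal protein (37) and p53 response genes (4) was higher or lower there, and neither was any of the ribosomal protein genes outside the rule (5); 1 of 9 growth control genes (myca) and 1 of 15 cycling genes (birc5a) were higher. In 3 dpf macrophage-like cells, where 10.6% of all features passed in either direction, none of the elongation factors (12 tested) passed. Of 26 initiation factors 1 was lower. In 6 dpf macrophage-like cells, where 20.5% of all features passed in either direction, 3 of 23 initiation factors were lower and none higher. The summed cycling genes stood at 191 CPM in DMSO and 351 CPM in ALK5i, with 1 gene (ube2c) high enough to be tested. In macrophage-like cells the summed stress genes stood at 5556 CPM in DMSO and 6484 CPM in ALK5i at 3 dpf, and at 5973 and 10210 CPM at 6 dpf, where 8 of 13 were higher and 2 lower. The part of stress, of the cell cycle and of depth in the values of these genes was not tested.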

How the data were processed

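RNA of sorted cells of whole larvae, minced and digested for 10 min at 37 °C, was captured with a 10x 3′ v4 kit, per the labels' protocols. The deposited matrices hold UMI counts per gene and cell, not normalized; they were written by Cell Ranger 9.0.0 per the file headers (9.0.1, with build GRCz11, per the submitters' processing notes). How reads that fit more than 1 gene were counted is not given in the sources used here.

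Barcodes under 500 UMIs, under 300 genes or above 10% mitochondrial UMIs were dropped. Doublets called by Scrublet in scanpy 1.11.5 were then removed. They were 2763, 1930, 4 and 5 cells in the order of the libraries, at 6 dpf 0.202 and 0.422% of the cells. Cells were clustered on 2000 variable genes, ribosomal protein genes and the compared lists left out, with 30 principal components. Neighbours (15 per cell) were found with scikit-learn 1.9.0 and clusters with leidenalg 0.10.2 at resolution 1. Blood-like clusters were clustered again. A cluster was named "X-like" with at least 3 markers of 1 class and none of the conflicts checked, and otherwise stayed unnamed. A marker counted when found in at least 10% of the cells of the cluster and at least 1.5-fold over other cells. Features that share a marker symbol were counted separately. Raw counts were summed per class and library. Shares carry exact Clopper-Pearson intervals and ratios exact conditional intervals; gene ratios are log2 of CPM + 5. Classes were compared with at least 50 cells in both groups and shown with at least 30. No test was possible with 1 library per group. The scripts were tested on simulated data.

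Members, gene lists and tests were chosen with earlier results of these data known. Named genes are every paralog group, the 5 highest and 5 lowest members of each comparison, the 5 most and least abundant in DMSO and the 5 whose part varied most over classes; genes of the other lists, the clusters and the reversing genes were chosen after their values were seen. Some genes that this rule names are not reported here. Of 94 identifiers all were in the gene name table and 84 had the same symbol there. No genome or sequence table was used here, so no coordinates or sequences are given.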

Additional observations from a re-analysis of the deposited data

Results flagged for a closer look

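The ratio of the ribosomal protein share between ALK5i and DMSO had opposite signs at the stages in mesenchyme-like cells: log2 0.13 at 3 dpf (21.5 against 19.7%) and −0.078 at 6 dpf (39.6 against 41.8%), a gap of 0.21. Within the 3 dpf libraries it had opposite signs in HSPC-like cells (0.04) and macrophage-like cells (−0.0089), a gap of 0.0441. With a single library behind each value, neither difference was tested, and the 3 dpf macrophage-like value changed sign when cells were thinned to a common depth. In HSPC-like cells the order of DMSO and ALK5i was not the same at each depth compared.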

How the results depend on the processing

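No paired analysis was possible because each group is 1 library and no replicate could be left out. Shares are in percent for HSPC-like 3 dpf, macrophage-like 3 dpf and macrophage-like 6 dpf cells of DMSO; ratios are log2, named by comparison; intervals are so narrow that small moves pass them. With a minimum of 1000 UMIs the shares were 34.66, 18.04 and 27.03 and the 3 dpf macrophage-like treatment ratio −0.0031. With doublet calls kept the shares were 33.88, 18.47 and 28.11, HSPC- over macrophage-like 0.88, treatment 0.0413 in HSPC-like and −0.13 in 6 dpf macrophage-like cells, stage 0.61, and the macrophage-like paralog ratios −1.32 (rpl22l1 over rpl22; −1.37 in the main analysis) and −1.59 (rplp2 over rplp2l; −1.56). At resolution 0.5 the first shares were 35.03 and 18.04, HSPC- over macrophage-like 0.96, HSPC-like treatment 0.0223 and the HSPC-like rpl22l1 ratio −0.51 (−0.43). With another Leiden seed they were 34.80 and 18.20, with 0.94 between the classes and 0.57 for stage. Without mitochondrial and listed globin UMIs the shares were 34.91, 18.25 and 27.27, with 0.94 between the classes, −0.012 for 3 dpf macrophage-like treatment and 0.58 for stage. As means over cells they were 34.87, 17.36 and 25.66, with 1.01 between the classes, −0.0051 and −0.057 for 3 and 6 dpf macrophage-like treatment and 0.56 for stage. Thinned to 1000 UMIs they were 35.04, 17.57 and 26.09, with 0.99, 0.0023 (a change of sign), −0.052 and 0.57 in the same order. Thinning drops cells under 1000 UMIs and weights the others equally, so it is no control for depth. The cause of the change of sign was not tested.

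3 alternatives were chosen after seeing the data. With unnamed clusters rich in macrophage or microglia markers the macrophage-like shares were 17.67 and 26.17, with 0.97 between the classes, −0.016 for 3 dpf treatment and 0.57 for stage. Without the HSPC-like cluster led by s100z and crhbp the share was 34.44, with 0.93 between the classes and 0.0383 for treatment. Without the 5 deepest cells of each class the 6 dpf share was 26.80, with −0.068 for treatment and 0.57 for stage. Counts of genes past the threshold stayed between 79 and 80 (classes), 5 and 8 (HSPC-like treatment), 3 and 3, 9 and 13 (3 and 6 dpf macrophage-like treatment) and 67 and 80 (stage) under another pseudocount, no filter, median centring, other size factors and the settings above.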

Other observations

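rps27l was concentrated in a single small cluster at 6 dpf, which was singled out after its values were seen. The cluster stayed unnamed, was led by si:dkey-35h6.1, apoa1a, apoea and slc13a2, and held 53 cells in DMSO and 22 in ALK5i. It supplied 69.1% of all rps27l UMIs of 6 dpf DMSO and 77.9% of those of ALK5i, at 5277 and 8249 CPM, and 5463 and 7842 CPM without its 5 deepest cells. The part of rps27l in its ribosomal protein UMIs was 20.6 and 32.2 times that of the whole library, whereas over 81 members the highest such fold in any cluster had a median of 1.19 and 1.18. In the same cells rpl7l1 was 2.63 and 3.19 times, rpl11 2.47 and 2.70 times and rpl19 2.46 and 2.47 times its library part. The ribosomal protein share of the cluster was 17.0 and 12.9%, below the 31.6 and 30.7% of the whole libraries. At 3 dpf the cluster highest in rps27l was another unnamed one, led by aqp8b, with cldn15la and cdh17 among its leading genes, at 275 CPM in DMSO and 212 CPM in ALK5i.

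An unnamed blood cluster of 3 dpf, led by slc4a1a and hdr, had a ribosomal protein share of 37.5% in DMSO and 37.9% in ALK5i, above the 34.6 and 35.4% of HSPC-like cells. A larger unnamed blood cluster, led by ackr3a, kcnq5a and s1pr4, stood at 35.7 and 36.7% over 800 and 588 cells. The highest place of HSPC-like cells thus holds among the named classes only.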
